A study of Mus musculus with 18 samples.

Results

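Gene expression was compared between pancreatic islets of 16-week and of 6-week C57BL/6J ob/ob mice, a comparison of age within 1 obese model. The members were 4 of the 18 arrays of the series, chosen by the age and strain in their labels: 2 arrays of 16-week ob/ob islets and 2 arrays of 6-week ob/ob islets. Lean C57BL/6J controls, called lean 6J below, and C57BL/KsJ db/db islets, again with 2 arrays for each age in the larger value table, served to show where the ob/ob age change differed. All mice came from 1 institute's breeding colonies and ate freely, and islets were picked by hand. The labels give neither the sex of the mice nor how many contributed to an array. The 2 arrays of a group may therefore be separate animals, pools or technical repeats. P-values and standard errors measure only the spread between arrays of a group. That spread was pooled over all 8 groups of the larger table, not taken from the ob/ob arrays alone.

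An ob/ob mouse carries a loss-of-function mutation in the leptin gene in every cell from birth. Without leptin it overeats and becomes obese, and its islets enlarge and secrete more insulin. On the 6J background the islets keep up this supply for long, whereas db/db mice, which lack the long form of the leptin receptor, lose it on the KsJ background. Beta cells under such demand are known to load their endoplasmic reticulum with proinsulin, to divide more and, when they fail, to lose identity genes and to express genes of immature cells. The question of the comparison was which of these programmes moved between 6 and 16 weeks in a model that compensates.

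The 4 arrays carried the hormones of islets at high signal. On the log2 scale of the deposited values, insulin 2 (Ins2) read 12.15 and 12.14 at 16 weeks and 12.20 and 11.97 at 6 weeks. Glucagon (Gcg), the alpha-cell hormone, read 13.09 and 13.21 at 16 weeks and 13.23 and 13.36 at 6 weeks. The acinar list, genes of digestive enzymes, averaged 9.33 and 8.71 on the 16-week arrays and 8.90 and 8.36 on the 6-week arrays, so exocrine RNA was present on all 4. The enterocyte list averaged 4.45 and 4.53 at 16 weeks and 4.39 and 4.28 at 6 weeks, against 9.72 on 1 lean array, 6-week lean 6J replicate 2. Array medians over the 16 arrays lay between 3.51 and 3.83.

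Age and sex cannot be told apart in the ob/ob islets. Uty, a gene of the Y chromosome, read 2.21 and 2.33 at 16 weeks and 7.25 and 7.61 at 6 weeks. Xist, the RNA that silences 1 X chromosome in female cells, read 8.62 and 8.60 at 16 weeks and 3.48 and 2.80 at 6 weeks. The Y-linked genes Eif2s3y and Kdm5d followed Uty, at 3.01 and 2.35 at 16 weeks and 6.96 and 7.33 at 6 weeks for Eif2s3y, and at 2.58 and 2.18 at 16 weeks and 6.06 and 6.31 at 6 weeks for Kdm5d. Both 16-week arrays therefore had a female profile and both 6-week arrays a male one, which holds for every value below. In a fit of the 4 ob/ob arrays alone these 4 genes were the only ones called, with limma adjusted p from 0.0127 (Uty) to 0.0407 (Eif2s3y). The fit of all 16 arrays, used below, called none of them. Uty changed there by -5.16 ± 1.97 (SE, limma adjusted p = 0.999), with the 6-week lean 6J arrays at 7.54 and 2.31.

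The 6-week arrays also differed from each other. Over the 15526 genes tested, the SD of the difference between 2 arrays was 0.368 for the 16-week pair and 0.504 for the 6-week pair. It was 0.377 between 16-week replicate 1 and 6-week replicate 1, and 0.503 between 16-week replicate 1 and 6-week replicate 2. By this measure 6-week replicate 1 lay nearly as close to 16-week replicate 1 as the 16-week arrays lay to each other, and 6-week replicate 2 lay farther from all 3. Of the genes tested, 413 (2.66%) were at least 1 log2 unit higher and 365 (2.35%) at least 1 lower on 6-week replicate 1 than on replicate 2. Within the 16-week pair, 119 (0.766%) were that much higher and 205 (1.32%) that much lower on replicate 1.

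With both arrays of each age, no gene passed the test. limma called 0 of 15526 genes (0%) at an adjusted p below 0.05, while 605 (3.90%) had an unadjusted p below 0.05, 266 of them higher (1.71%) and 339 lower (2.18%) at 16 weeks. The median log2 change over all genes was -0.01, 48.4% of them lay above 0, and the median standard error was 0.261. Both 16-week arrays lay above both 6-week arrays for 2627 genes (16.9%) and below both for 3016 (19.4%). The genes that follow are named because their unadjusted p was smallest, and are values rather than calls. Predicted genes and those with clone names were passed over here and in the later rankings.

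Bcat1, the cytosolic enzyme that transfers the amino group of branched-chain amino acids, stood closest to the threshold. It read 4.76 and 4.67 at 16 weeks and 3.15 and 3.11 at 6 weeks, a log2 change of 1.59 ± 0.21 (SE, adjusted p = 0.155). Lean 6J islets had 2.96 and 3.36 at 16 weeks and 2.78 and 2.92 at 6 weeks, so the level of both 16-week ob/ob arrays lay above all 4 lean arrays. In db/db islets it read 5.73 and 5.39 at 16 weeks and 3.53 and 3.33 at 6 weeks. There it rose with age, by a log2 change of 2.13 (adjusted p = 0.00859).

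The other 4 genes with the smallest p among those higher at 16 weeks had adjusted p between 0.974 and 0.999. Bmpr1b, a type I receptor for bone morphogenetic proteins, read 4.18 and 4.25 at 16 weeks and 3.12 and 3.0 at 6 weeks. Barhl1, a homeobox factor of neural development, read 5.53 and 5.51 at 16 weeks and 4.30 and 4.31 at 6 weeks. Nthl1, a DNA glycosylase of base excision repair, read 5.30 and 5.03 at 16 weeks and 4.07 and 4.07 at 6 weeks. In each of these the arrays of an age lay close together and the ages did not overlap. Lean 6J islets had the same order for Bmpr1b, at 4.56 and 4.74 at 16 weeks and 3.35 and 3.15 at 6 weeks. They also had it for Barhl1, at 4.30 and 4.26 at 16 weeks and 3.68 and 3.86 at 6 weeks. For Nthl1 they had it as well, at 4.71 and 4.76 at 16 weeks and 4.53 and 4.15 at 6 weeks.

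The remaining gene of that group was Mir7b, a microRNA gene of the miR-7 family, which is abundant in the endocrine pancreas. Its array cluster reports the region of the precursor, not the mature microRNA. The mature sequences are shown because a second gene of the family, Mir7-2, had the same pattern (it was chosen after its values were seen). They are from RefSeq, build GRCm38.p6, at chr7:78888295-78888317 (plus strand) for Mir7-2 and chr17:56243017-56243040 (plus strand) for Mir7b, and capitals mark the seed, bases 2 to 8, which pairs with target RNAs.
mmu-miR-7a-5p: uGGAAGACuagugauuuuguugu
mmu-miR-7b-5p: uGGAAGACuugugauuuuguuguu
Among 1679 mature mouse names in that table, 2 have this seed, so both members share it and differ after it. Mir7b read 4.39 and 5.07 at 16 weeks and 3.70 and 3.62 at 6 weeks, a log2 change of 1.07 ± 0.23 (SE, adjusted p = 0.974). Mir7-2 read 6.18 and 6.13 at 16 weeks and 4.99 and 5.02 at 6 weeks, a log2 change of 1.15 ± 0.28 (SE, adjusted p = 0.999). Neither gene's ages overlapped, and neither passed the test. Lean 6J islets had the same order: Mir7b read 6.10 and 5.64 at 16 weeks and 4.28 and 4.45 at 6 weeks, and Mir7-2 6.24 and 5.60 at 16 weeks and 5.24 and 4.86 at 6 weeks. In db/db islets Mir7b read 3.63 and 3.79 at 16 weeks and 3.99 and 3.91 at 6 weeks, without that order. Over the 157 microRNA genes tested, a group also formed after values were seen, the median log2 change in ob/ob islets was -0.12, and 61 were above 0.

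Among genes lower at 16 weeks, Star had the smallest p. Star carries cholesterol into mitochondria for steroid synthesis. It read 3.24 and 3.38 at 16 weeks and 4.74 and 4.25 at 6 weeks, a log2 change of -1.18 ± 0.19 (SE, adjusted p = 0.385). The 4 lean 6J arrays lay between these, at 3.77 and 3.74 at 16 weeks and 3.73 and 3.88 at 6 weeks, so the 6-week ob/ob arrays stood above lean islets and the 16-week ones below.

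Ghsr, the receptor for ghrelin, which in islets is found on delta cells, read 4.66 and 4.82 at 16 weeks and 6.13 and 6.08 at 6 weeks, a log2 change of -1.37 ± 0.28 (SE, adjusted p = 0.974). Both 6-week arrays were within the lean 6J range of 5.90 to 6.59, and both 16-week arrays were below it. Spaca6, a sperm acrosome protein, read 5.06 and 4.99 at 16 weeks and 5.94 and 6.24 at 6 weeks. Hhatl, a relative of the acyltransferase for hedgehog proteins, read 3.09 and 3.75 at 16 weeks and 4.49 and 5.09 at 6 weeks. Hunk, a serine/threonine kinase, read 4.78 and 4.71 at 16 weeks and 5.58 and 5.46 at 6 weeks. For these 3 genes as well, the 16-week ob/ob arrays were below every lean 6J array. Lean 6J islets had the same order of ages for Spaca6, at 6.13 and 5.89 at 16 weeks and 6.63 and 6.25 at 6 weeks. They also had it for Hunk, at 5.10 and 5.37 at 16 weeks and 5.59 and 5.55 at 6 weeks. For Hhatl they had the opposite order, at 5.49 and 5.32 at 16 weeks and 4.83 and 5.06 at 6 weeks.

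**Figure D1:**
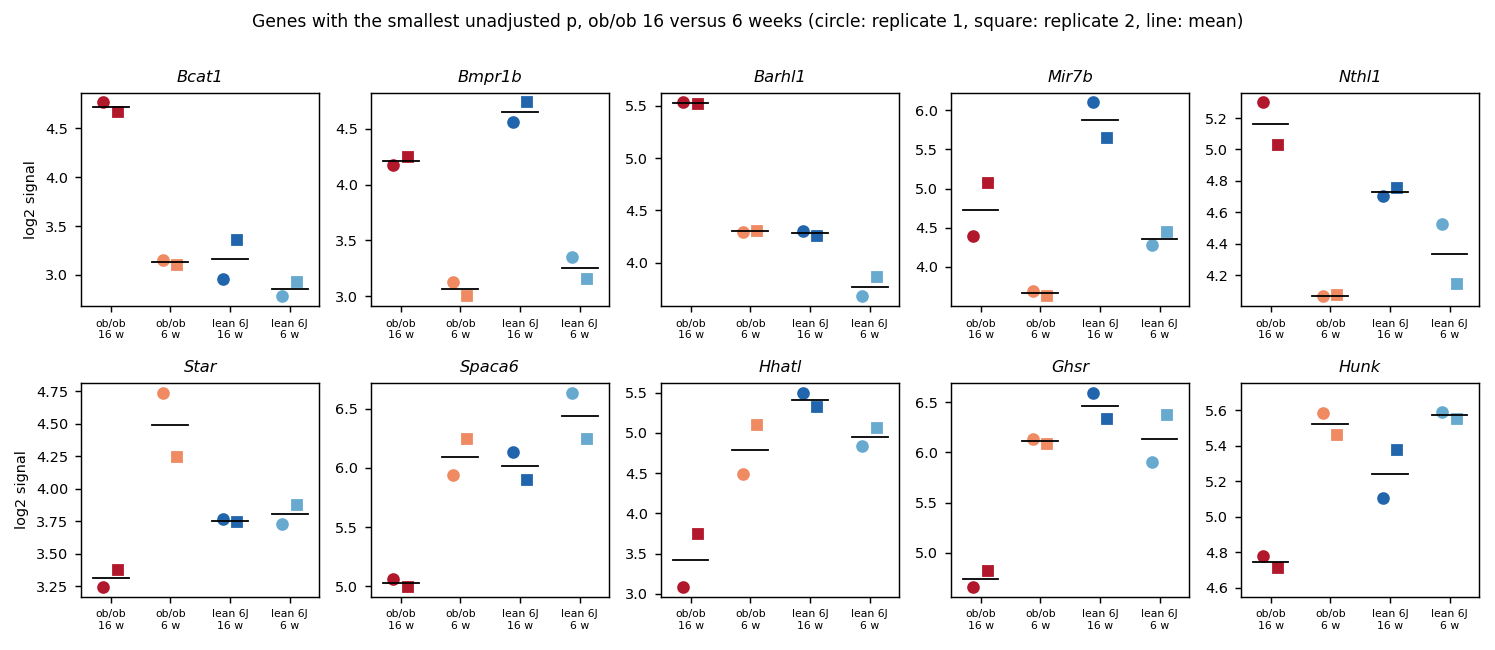
Log2 signal of the 5 genes with the smallest unadjusted p, predicted genes left out, that were higher (upper row) and lower (lower row) in 16-week than in 6-week ob/ob islets. Each panel has its own axis; points are arrays and lines are means of 2. The ob/ob ages do not overlap in any panel; Bcat1, the nearest to the threshold, sits at 4.76 and 4.67 at 16 weeks and at 3.15 and 3.11 at 6 weeks.

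Each 6-week array was then compared alone with the pair of 16-week arrays. In these fits the lone array is assumed to vary like the other groups. Against 6-week replicate 1, limma called 0 genes (0%), and 463 (2.98%) had an unadjusted p below 0.05. Against 6-week replicate 2 it called 8 genes (0.0515%), 4 higher (0.0258%) and 4 lower (0.0258%) at 16 weeks, with 1299 (8.37%) at an unadjusted p below 0.05. Differences of at least 1 log2 unit either way numbered 221 (1.42%) against replicate 1 and 635 (4.09%) against replicate 2. Leaving out replicate 1 also takes its distance from replicate 2 out of the shared variance: the standard error of Aldh1a3 was 1.13 with both arrays and 0.45 against replicate 2 alone.

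Aldh1a3, an aldehyde dehydrogenase that makes retinoic acid and a known marker of dedifferentiated beta cells, had the largest of the 8 differences. It read 10.43 and 10.16 at 16 weeks, 10.52 on 6-week replicate 1 and 5.43 on 6-week replicate 2. The log2 difference was 4.87 ± 0.45 against replicate 2 (SE, adjusted p = 0.00795) and -0.22 against replicate 1. The 4 lean 6J arrays read 4.31 to 4.77. So 1 of the 6-week ob/ob arrays carried this gene at the 16-week level and the other stood near lean islets. In db/db islets it read 10.79 and 10.94 at 16 weeks and 8.46 and 9.0 at 6 weeks.

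The other 3 genes higher than on replicate 2 encode proteins of varied kinds. Cpne4, a calcium-dependent phospholipid-binding protein, read 6.60 and 6.34 at 16 weeks and 5.82 and 4.10 at 6 weeks, and was the only one of these 4 whose ages did not overlap; it rose by 2.37 ± 0.23 against replicate 2 (SE, adjusted p = 0.00795). Vstm2a, a protein with an immunoglobulin-like domain, read 6.35 and 5.95 at 16 weeks and 6.32 and 3.89 at 6 weeks (adjusted p = 0.0178 against replicate 2). C1qtnf1, a secreted relative of adiponectin, read 7.10 and 7.16 at 16 weeks and 7.66 and 4.37 at 6 weeks (adjusted p = 0.0323 against replicate 2). On all 3, 6-week replicate 2 lay within or beside the lean 6J range and replicate 1 well above it.

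The 4 genes lower than on replicate 2 included 3 with roles in neurons. Eef1a2, the translation elongation factor of neurons and muscle, read 5.69 and 5.48 at 16 weeks and 6.33 and 7.35 at 6 weeks (adjusted p = 0.0295 against replicate 2). Ncam2, a neural cell adhesion molecule, read 4.51 and 4.53 at 16 weeks and 4.74 and 6.38 at 6 weeks (adjusted p = 0.0323). Gap43, a protein of axonal growth cones, read 4.26 and 4.18 at 16 weeks and 4.56 and 6.03 at 6 weeks (adjusted p = 0.0335). On all 3 the 16-week arrays were below both 6-week arrays, and 6-week replicate 2 was the highest of the 4. Lean 6J islets read 6.98 to 7.58 for Eef1a2 and 6.11 to 6.41 for Ncam2, so replicate 2 lay within the lean range. For Gap43 it lay above the lean range of 4.98 to 5.43. The other ob/ob arrays were below the lean range on all 3. The fourth, Mab21l2, a gene of eye and body wall development, read 3.64 and 3.17 at 16 weeks and 3.68 and 5.87 at 6 weeks (adjusted p = 0.0323).

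A list of 16 neuron genes was made after values were seen, so it describes the arrays and gives no support to the calls. Of these genes 12 were tested, with a mean of 4.75 and 4.99 at 16 weeks and 5.10 and 6.46 at 6 weeks. The mean on 6-week replicate 2 exceeded that of all 4 lean 6J arrays, which lay between 5.68 and 5.75. Vip, a neuropeptide of pancreatic nerves, read 4.56 and 6.28 at 16 weeks and 6.26 and 9.22 at 6 weeks. The part of nerve tissue in the calls against replicate 2 was not tested. None of those calls held with the Xist level as a covariate or with 16-week replicate 1 left out. None held either when the 16-week pair and 6-week replicate 2 were fitted without the other groups. Aldh1a3, Cpne4 and Vstm2a kept theirs without 16-week replicate 2. The effect of the Xist covariate is fitted from differences between arrays of the same group. Among the ob/ob, lean 6J and db/db pairs, Xist differed most in the 6-week lean 6J pair, at 4.27 and 9.46. The second of these arrays is the one that held enterocyte genes, so there the covariate mixes sex with enterocyte RNA.

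**Figure D2:**
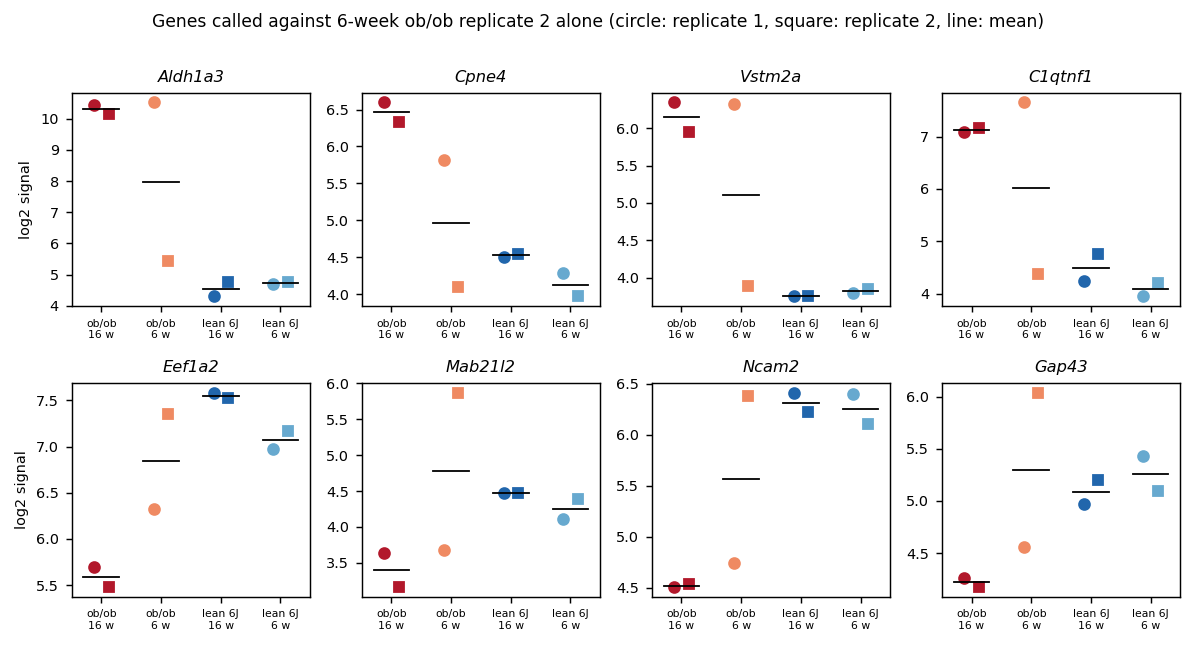
Log2 signal of the 8 genes called against 6-week ob/ob replicate 2 alone, in ob/ob and lean 6J islets; points are arrays and lines are means of 2, and each panel has its own axis. In Aldh1a3 the 6-week ob/ob circle (replicate 1, 10.52) sits with the 16-week arrays and the square (replicate 2, 5.43) near lean islets; Eef1a2, Mab21l2, Ncam2 and Gap43 show the square of 6-week ob/ob islets above the other ob/ob arrays.

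Genes that moved in the same direction against each 6-week array were few. Both single-array differences were at least 1 for 39 genes higher (0.251%) and 22 genes lower (0.142%) at 16 weeks. Beside Xist, the largest on the higher side were Ighg3, Hspa1b, Iigp1 and Snora73a. Ighg3, the constant region of immunoglobulin G3, read 7.59 and 4.60 at 16 weeks and 2.73 and 3.25 at 6 weeks. Snora73a, a small nucleolar RNA, read 8.05 and 8.13 at 16 weeks and 6.48 and 5.93 at 6 weeks, a log2 change of 1.88 ± 0.47 (SE, adjusted p = 0.999). Lean 6J islets had the same order for it, at 7.18 and 7.0 at 16 weeks and 6.19 and 5.59 at 6 weeks. Snora73a differed little between the 16-week arrays and by 0.55 between the 6-week arrays. For Ighg3 the 16-week arrays differed by nearly 3 log2 units.

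On the lower side, beside the 3 Y-linked genes, were Slc28a2 and Gpr137b. Slc28a2, a sodium-coupled nucleoside transporter, read 3.18 and 3.25 at 16 weeks and 5.39 and 4.88 at 6 weeks, a log2 change of -1.92 ± 0.69 (SE, adjusted p = 0.999). Gpr137b, a lysosomal membrane protein, read 5.91 and 2.90 at 16 weeks and 5.93 and 6.42 at 6 weeks, so its change lay with 16-week replicate 2.

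Between the 6-week arrays themselves, the largest differences higher on replicate 1 beside Aldh1a3 included those of Ighm, Cxcl13 and Serpina7. Ighm, the heavy chain of immunoglobulin M, read 6.22 and 7.52 at 16 weeks, 10.79 on 6-week replicate 1 and 6.36 on replicate 2. Cxcl13, the chemokine that attracts B cells, read 5.68 and 4.73 at 16 weeks, and 8.79 and 4.99 on the 6-week arrays. For both Ighm and Cxcl13, 6-week replicate 1 stood above the other 3 ob/ob arrays. Over the 14 T, B and plasma cell genes with a cluster of their own, 11 of them tested, the mean was 3.14 and 3.38 at 16 weeks and 3.51 and 3.26 at 6 weeks.

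The largest differences the other way, higher on 6-week replicate 2, beside Vip, were in Cyp4f39, Slc5a7, Npy and Nnat. Cyp4f39, a cytochrome P450 of fatty acid hydroxylation, read 4.73 and 5.89 at 16 weeks and 5.17 and 8.25 at 6 weeks, against 8.06 to 8.71 in lean 6J islets. Npy, neuropeptide Y, read 4.64 and 6.08 at 16 weeks and 5.17 and 7.88 at 6 weeks, against 6.72 to 7.85 in lean 6J islets. Nnat, neuronatin, an imprinted gene that aids insulin processing in beta cells, read 5.38 and 5.65 at 16 weeks and 4.59 and 7.28 at 6 weeks, against 7.68 to 8.09 in lean 6J islets. In all 3 the replicate 2 array was near or within the lean range and the other 3 ob/ob arrays were below it. Slc5a7, the choline transporter of cholinergic nerve endings, read 3.71 and 3.17 at 16 weeks and 2.77 and 5.75 at 6 weeks, with replicate 2 above the highest lean 6J array of 4.59.

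**Figure D3:**
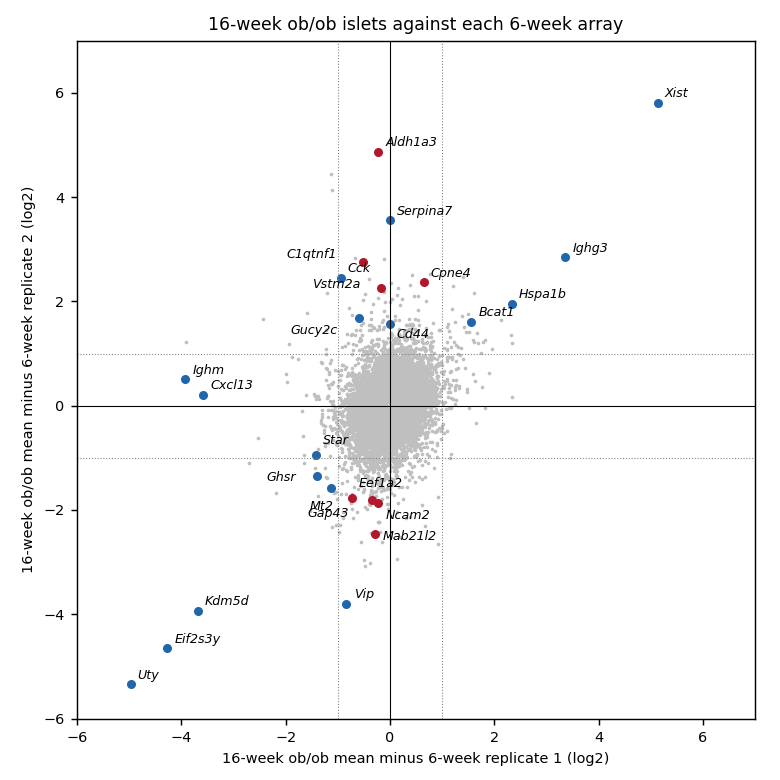
The 15526 genes tested, as the mean of the 16-week ob/ob arrays minus 6-week replicate 1 (horizontal) and minus 6-week replicate 2 (vertical), in log2 units; dotted lines mark differences of 1. Red points are the 8 genes called against replicate 2 and blue points are other genes named in the text. The sex-linked genes and Bcat1 lie on the diagonal, Aldh1a3 (-0.22 and 4.87) and Serpina7 on the vertical axis, and Ighm and Cxcl13 far left.

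Hormones and beta-cell identity genes gave no call and small differences between the ages. Islet amyloid polypeptide (Iapp), secreted with insulin, read 12.74 and 12.74 at 16 weeks and 12.70 and 12.57 at 6 weeks. The transcription factor Pdx1 read 8.93 and 9.01 at 16 weeks and 9.0 and 9.25 at 6 weeks, and Nkx6-1 10.36 and 10.34 at 16 weeks and 10.23 and 10.64 at 6 weeks. Of 27 tested genes of the identity and maturity list, 0 were called, 7 lay above 0, and the median log2 change was -0.11, against -0.01 over all genes. The list median was 0.01 against 6-week replicate 1 and -0.27 against replicate 2.

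Several maturity genes had the same dependence on the 6-week array. Slc2a2, the glucose transporter of rodent beta cells, read 11.96 and 11.77 at 16 weeks and 11.40 and 12.70 at 6 weeks, against 12.71 to 12.86 in lean 6J islets. Mafa, a factor of mature beta cells, read 9.26 and 9.59 at 16 weeks and 8.92 and 10.04 at 6 weeks. Ucn3, the peptide urocortin 3 of mature beta cells, read 11.14 and 11.22 at 16 weeks and 10.88 and 11.46 at 6 weeks. In all 3 the 16-week arrays lay between the 6-week arrays, with replicate 1 lowest and replicate 2 highest. Gpr119, a lipid receptor that promotes insulin release, was lower without overlap, at 7.56 and 7.42 at 16 weeks and 8.13 and 8.16 at 6 weeks (adjusted p = 0.999). Nkx6-2, a homeobox factor related to Nkx6-1, read 3.88 and 4.11 at 16 weeks and 3.63 and 3.41 at 6 weeks.

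Most markers of dedifferentiated or immature endocrine cells, 9 of 13 tested, were higher on 6-week replicate 1 than on replicate 2. Npy, described above, is also in this list and went the other way, at 5.17 on replicate 1 and 7.88 on replicate 2. Of 13 tested, 0 were called, 7 lay above 0, and the median log2 change was 0.08; it was -0.22 against 6-week replicate 1 and 0.22 against replicate 2. Serpina7, thyroxine-binding globulin, read 10.59 and 10.55 at 16 weeks and 10.58 and 7.02 at 6 weeks. Cd44, a receptor for hyaluronan, read 8.72 and 8.44 at 16 weeks and 8.59 and 7.01 at 6 weeks. Both therefore stood at one level on 3 ob/ob arrays and near the lean 6J arrays, at 6.28 to 7.04 for Serpina7 and 6.81 to 7.15 for Cd44, on 6-week replicate 2. Against replicate 2 alone the log2 difference was 3.55 ± 0.69 for Serpina7 (SE, adjusted p = 0.127) and 1.57 ± 0.26 for Cd44 (SE, adjusted p = 0.0845), and neither passed the test.

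The gut peptides of the list were highest on 6-week replicate 1. Cck, cholecystokinin, read 7.13 and 6.29 at 16 weeks and 7.66 and 4.26 at 6 weeks, and Gast, gastrin, 6.24 and 5.61 at 16 weeks and 7.13 and 5.23 at 6 weeks. Neurog3, the factor of endocrine progenitors, read 7.07 and 6.15 at 16 weeks and 7.61 and 7.31 at 6 weeks, lower at 16 weeks without overlap (adjusted p = 0.999). Outside the list, Gucy2c, the receptor for guanylin, read 10.51 and 10.52 at 16 weeks and 11.11 and 8.83 at 6 weeks, and Csn3, the milk protein kappa-casein, 3.14 and 3.29 at 16 weeks and 4.17 and 2.63 at 6 weeks. Here too replicate 1 was the highest and replicate 2 the lowest of the 4.

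The hormones of delta and PP cells read slightly lower at 16 weeks. Ppy, pancreatic polypeptide, read 12.42 and 12.54 at 16 weeks and 12.72 and 13.07 at 6 weeks, and Pyy, peptide YY, 12.16 and 12.01 at 16 weeks and 12.36 and 12.55 at 6 weeks. Sst, somatostatin, read 12.97 and 12.97 at 16 weeks and 12.98 and 13.28 at 6 weeks. Of 9 tested genes of the delta, PP and epsilon list, 2 lay above 0. Without overlap, 1 was higher and 5 were lower, where the shares over all genes were 16.9% and 19.4%. Of 9 alpha-cell genes, 3 lay above 0. Irx2, a factor of alpha cells, read 5.60 and 6.30 at 16 weeks and 6.34 and 7.17 at 6 weeks, against 7.0 to 7.65 in lean 6J islets. In whole islets fewer cells of a type and less RNA per cell cannot be told apart.

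Genes of protein folding in the endoplasmic reticulum lay above 0 almost throughout. Of 27 tested chaperone and unfolded protein response genes, 0 were called, 26 lay above 0, and the median log2 change was 0.25. Without overlap, 14 were higher and 0 lower, where the shares over all genes were 16.9% and 19.4%. Herpud1, which takes part in degradation of misfolded proteins, read 11.27 and 11.16 at 16 weeks and 10.55 and 10.79 at 6 weeks, a log2 change of 0.55 ± 0.17 (SE, adjusted p = 0.999). Dnajb9, a co-chaperone, read 11.30 and 11.21 at 16 weeks and 10.63 and 10.87 at 6 weeks. Hspa5, the main chaperone BiP, read 10.42 and 10.45 at 16 weeks and 10.33 and 10.13 at 6 weeks. Lean 6J islets had the same order for Herpud1, at 10.93 and 10.88 at 16 weeks and 10.60 and 10.29 at 6 weeks. They also had it for Dnajb9, at 10.29 and 10.63 at 16 weeks and 9.97 and 9.94 at 6 weeks. The median of the list in lean 6J islets was 0.08. In ob/ob islets the list median was 0.14 against 6-week replicate 1, with 20 of 27 above 0. It was 0.42 against replicate 2, with 24 above 0. Sdf2l1, a chaperone partner, differed most clearly between the 6-week arrays of the genes named here, with 11.41 and 11.51 at 16 weeks and 11.31 and 10.16 at 6 weeks.

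The integrated stress response, in which ATF4 induces amino acid and stress genes, had a like pattern. Of 18 tested genes 0 were called and 16 lay above 0, with a median log2 change of 0.28. Without overlap, 11 were higher, where the share over all genes was 16.9%. Against 6-week replicate 1, 17 lay above 0, and against replicate 2, 15 did. Chac1, which degrades glutathione, read 7.59 and 7.38 at 16 weeks and 6.35 and 6.05 at 6 weeks, a log2 change of 1.28 ± 0.30 (SE, adjusted p = 0.999). Ddit3, the factor CHOP, read 7.04 and 7.07 at 16 weeks and 5.93 and 6.64 at 6 weeks. Lean 6J islets had the same order for Chac1, at 8.12 and 7.76 at 16 weeks and 6.70 and 6.19 at 6 weeks. They also had it for Ddit3, at 7.43 and 7.50 at 16 weeks and 6.92 and 6.54 at 6 weeks. The median of the list in lean 6J islets was 0.43.

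Oxidative phosphorylation genes lay above 0 in 27 of 28 cases, with 0 called and a median log2 change of 0.22. The median was 0.01 against 6-week replicate 1, with 19 above 0, and 0.39 against replicate 2, with 25 above 0. Without overlap, 8 of the 28 were higher, where the share over all genes was 16.9%. Sterol and fatty acid synthesis genes went the other way: 2 of 20 lay above 0, 0 were called and the median was -0.27. Of these 20 genes, 12 were lower without overlap, where the share over all genes was 19.4%. Against 6-week replicate 1 alone 4 lay above 0, and against replicate 2 alone 2 did. Srebf2, the factor that drives cholesterol synthesis, read 7.83 and 7.67 at 16 weeks and 8.18 and 8.80 at 6 weeks. Fads2, a fatty acid desaturase, read 7.41 and 7.33 at 16 weeks and 7.98 and 8.12 at 6 weeks, and Stard4, a cholesterol carrier, 5.45 and 5.13 at 16 weeks and 5.74 and 6.05 at 6 weeks. For all 3 the 16-week ob/ob arrays lay below all 4 lean 6J arrays.

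In lipid uptake and oxidation, 12 of 23 genes lay above 0. Lpl, lipoprotein lipase, read 7.02 and 7.75 at 16 weeks and 7.44 and 9.27 at 6 weeks, against 9.31 to 9.66 in lean 6J islets, so 6-week replicate 2 again stood apart from the other ob/ob arrays. Acot2, a mitochondrial acyl-CoA thioesterase, read 7.74 and 7.55 at 16 weeks and 8.10 and 8.24 at 6 weeks. Of 14 genes that respond to glucose through ChREBP, 3 lay above 0 and the median was -0.22. Txnip, the thioredoxin inhibitor that glucose induces strongly, read 10.97 and 10.65 at 16 weeks and 11.44 and 10.53 at 6 weeks, and Rgs16, a regulator of G-protein signalling, 8.67 and 8.34 at 16 weeks and 9.71 and 9.22 at 6 weeks. Glycolysis and hypoxia genes had 10 of 21 above 0.

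Metallothioneins, small proteins that bind zinc and copper, read lower at 16 weeks. Mt2 read 9.32 and 9.39 at 16 weeks and 10.49 and 10.93 at 6 weeks, a log2 change of -1.36 ± 0.41 (SE, adjusted p = 0.999), and Mt1 read 8.57 and 8.60 at 16 weeks and 9.19 and 9.66 at 6 weeks. In both genes the 16-week ob/ob arrays lay below all lean 6J arrays, at 10.76 to 11.35 for Mt2 and 9.61 to 10.07 for Mt1. The rest of the antioxidant list was mixed, with 14 of 23 above 0 and 0 called. Sod3, the extracellular superoxide dismutase, read 7.18 and 7.68 at 16 weeks and 6.97 and 5.32 at 6 weeks. Osgin1, a target of the factor NRF2, read 8.05 and 8.03 at 16 weeks and 7.82 and 7.26 at 6 weeks. All 4 ob/ob arrays stood above the 4 lean 6J arrays, which lay between 4.78 and 5.07 for Sod3 and between 6.19 and 7.06 for Osgin1, and 6-week replicate 2 was the nearest to them.

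The inducible heat shock genes Hspa1a and Hspa1b, which encode HSP70 proteins that refold damaged proteins, read higher at 16 weeks. Hspa1b read 7.77 and 7.98 at 16 weeks and 5.55 and 5.92 at 6 weeks, and Hspa1a 8.88 and 8.77 at 16 weeks and 7.0 and 7.57 at 6 weeks. The log2 change of Hspa1b was 2.14 ± 1.20 (SE, adjusted p = 0.999). Lean 6J islets had the same order, with Hspa1b at 8.39 and 8.65 at 16 weeks and 6.46 and 6.80 at 6 weeks. The SE also holds the spread of db/db islets, at 8.45 and 6.62 at 16 weeks and 6.81 and 8.54 at 6 weeks. The upstream sequence of Hspa1b is shown because the pair moved together and is nearly identical: 247 of 250 upstream bases are equal in both genes, and their probes may read both transcripts, so their separate values are uncertain. It covers chr17:34959239-34959488 (minus strand, RefSeq, build GRCm38.p6), and capitals mark the 1 match to the motif GAANNTTC, a pair of heat shock element units facing each other, searched on both strands.
Hspa1b: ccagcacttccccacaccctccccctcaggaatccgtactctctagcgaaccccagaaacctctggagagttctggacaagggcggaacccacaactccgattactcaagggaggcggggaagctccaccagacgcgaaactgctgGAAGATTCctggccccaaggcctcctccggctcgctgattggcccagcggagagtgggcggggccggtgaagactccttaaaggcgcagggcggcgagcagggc
The motif occurred in 6.69% of the 32851 promoters of that table, and a match describes letters, not a bound site. The median of 13 tested heat shock and co-chaperone genes was 0.11, with 10 above 0, so most members differed by far less than this pair.

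Of 16 clock genes tested 0 were called and 5 lay above 0. Without overlap, 2 were higher and 6 lower, where the shares over all genes were 16.9% and 19.4%. Dbp, a clock output factor, read 6.88 and 6.77 at 16 weeks and 7.53 and 8.97 at 6 weeks, a log2 change of -1.43 ± 0.44 (SE, adjusted p = 0.999). Nr1d1, the repressor REV-ERB alpha, read 8.11 and 7.45 at 16 weeks and 8.15 and 9.43 at 6 weeks, and its relative Nr1d2 7.09 and 6.91 at 16 weeks and 7.31 and 8.25 at 6 weeks. Bhlhe41, a repressor of the same loop, read 6.65 and 6.74 at 16 weeks and 6.96 and 7.83 at 6 weeks. In these 4 the 16-week arrays were lowest and 6-week replicate 2 highest, and replicate 2 lay within the lean 6J range. The labels give no time of day.

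Of 23 islet receptor genes 0 were called and 11 lay above 0. Without overlap, 3 were higher and 8 lower at 16 weeks, where the shares over all genes were 16.9% and 19.4%. Sstr1, a somatostatin receptor, read 3.45 and 2.97 at 16 weeks and 3.74 and 4.12 at 6 weeks, and Avpr1b, a vasopressin receptor, 3.78 and 4.22 at 16 weeks and 4.64 and 4.87 at 6 weeks. Htr3a, the serotonin-gated channel, read 3.59 and 3.10 at 16 weeks and 3.90 and 5.97 at 6 weeks. Of 21 ion channel genes 5 lay above 0, with a median of -0.25; the calcium channel subunits Cacna1h, at 3.15 and 3.89 at 16 weeks and 4.45 and 4.35 at 6 weeks, and Cacna1a, at 7.11 and 6.83 at 16 weeks and 7.32 and 7.64 at 6 weeks, were among the 9 lower without overlap, and 1 was higher.

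Imprinted genes had 4 of 16 above 0 and a median of -0.27. Zim1, a paternally silenced zinc finger gene, read 8.09 and 8.23 at 16 weeks and 8.68 and 9.82 at 6 weeks, against 10.24 to 10.59 in lean 6J islets. Peg10, a gene derived from a retrotransposon, read 4.21 and 4.37 at 16 weeks and 5.04 and 5.46 at 6 weeks, and Plagl1, a zinc finger factor, 4.08 and 4.0 at 16 weeks and 4.31 and 5.20 at 6 weeks. These 3 had their lowest ob/ob values at 16 weeks and their highest on 6-week replicate 2. Igf2, a growth factor, went the other way, at 5.19 and 5.04 at 16 weeks and 4.69 and 4.69 at 6 weeks. Irs1, an adaptor of the insulin receptor, read 5.13 and 4.95 at 16 weeks and 5.34 and 6.17 at 6 weeks, and 5 of 20 insulin and IGF signalling genes lay above 0.

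Proliferation genes split by array rather than by age. Mki67, a protein of dividing cells, read 6.01 and 7.03 at 16 weeks and 7.04 and 6.36 at 6 weeks. Plk1, a mitotic kinase, read 5.83 and 7.25 at 16 weeks and 6.48 and 5.77 at 6 weeks. Of 32 S and M phase genes, 30 were higher on 6-week replicate 1 than on replicate 2 and 27 higher on 16-week replicate 2 than on replicate 1, so the ages overlapped. The list median was 0.09, with -0.23 against 6-week replicate 1 and 0.32 against replicate 2, and 0 genes were called. The list mean was 5.41 and 5.96 at 16 weeks and 5.93 and 5.35 at 6 weeks, against 4.56 and 4.75 in 16-week and 5.20 and 5.57 in 6-week lean 6J islets. Among regulators of the earlier G1 phase, Rb1, the retinoblastoma protein, read 8.30 and 8.06 at 16 weeks and 8.39 and 8.76 at 6 weeks, and 10 of 14 genes lay above 0.

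**Figure D4:**
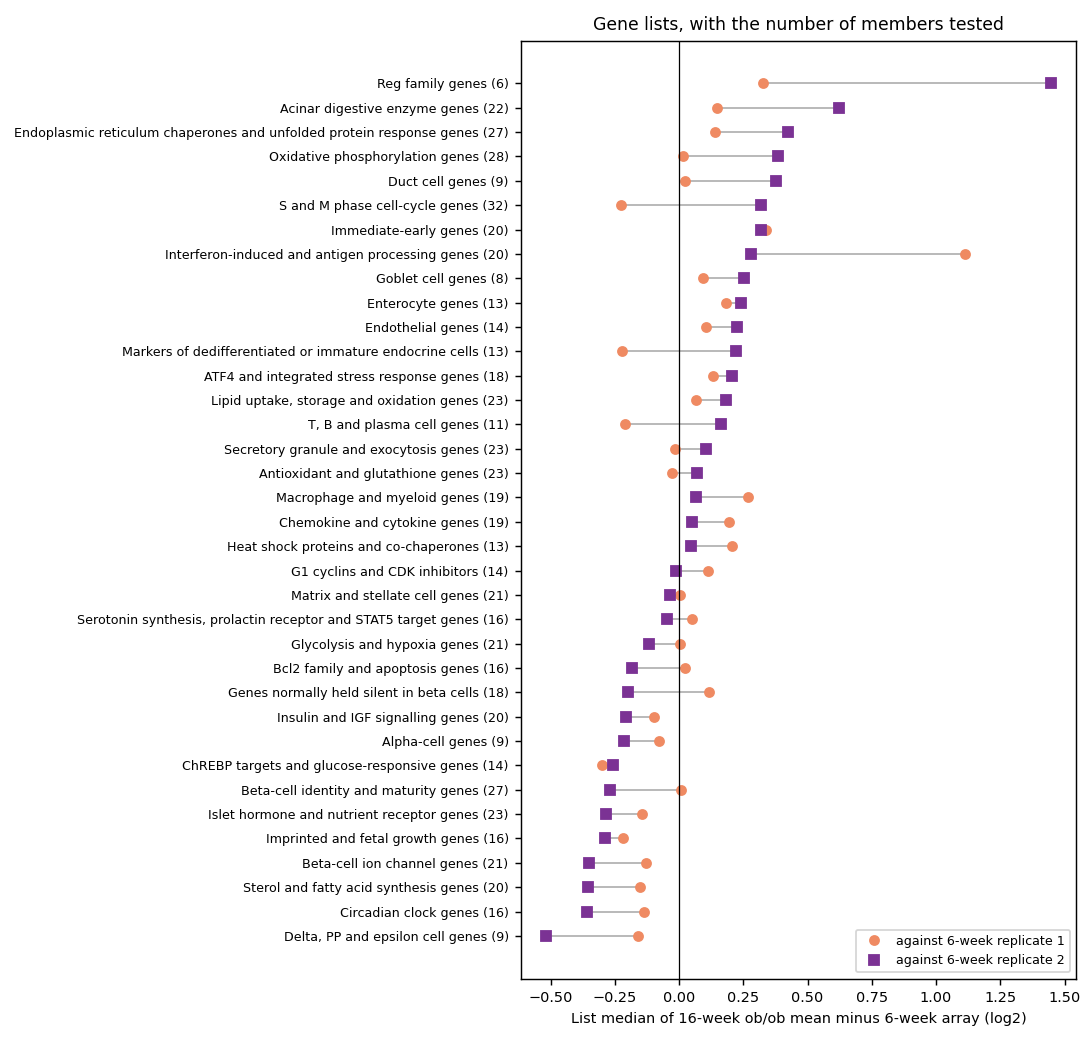
Median over each gene list of the 16-week ob/ob mean minus 6-week replicate 1 (circles) and minus 6-week replicate 2 (squares), in log2 units, for the lists with at least 5 members tested; numbers of members are in brackets. Beta-cell identity genes sit at 0.01 and -0.27, oxidative phosphorylation genes at 0.01 and 0.39 and S and M phase genes at -0.23 and 0.32, so a list's place depended on the 6-week array it was set against.

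Interferon-induced genes stood out on 1 array, 16-week replicate 2. Of 20 tested, 19 were higher on that array than on 16-week replicate 1, by a median of 1.38, and 18 were above both 6-week arrays on it, against 4 on replicate 1. Shares over all genes were not computed for these counts on single arrays. The median difference from the 6-week mean was 1.43 for replicate 2 and -0.04 for replicate 1. Bst2, tetherin, read 5.87 and 8.78 at 16 weeks and 5.74 and 6.07 at 6 weeks. Ifit1, an RNA-binding antiviral protein, read 3.70 and 8.39 at 16 weeks and 3.70 and 5.88 at 6 weeks, and Irf7, a factor of the interferon response, 5.12 and 8.83 at 16 weeks and 5.02 and 5.90 at 6 weeks. None of these is an age difference held by both arrays.

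Of the 20 tested, 3 were above both 6-week arrays on both 16-week arrays, where the share over all genes was 16.9%. Mx2, an antiviral GTPase, read 4.09 and 5.48 at 16 weeks and 3.26 and 3.37 at 6 weeks, and Oas2, an RNA-sensing synthetase, 4.42 and 6.27 at 16 weeks and 3.66 and 4.14 at 6 weeks (adjusted p = 0.999 for both). Iigp1, an interferon-induced GTPase, read 4.99 and 8.07 at 16 weeks and 4.40 and 4.89 at 6 weeks. The chemokine Cxcl10, which interferon induces, read 3.95 and 8.36 at 16 weeks and 3.82 and 4.95 at 6 weeks, so that only replicate 2 was above both 6-week arrays. Its relative Cxcl9 read 3.23 and 5.48 at 16 weeks and 3.05 and 3.22 at 6 weeks. Replicate 2 was thus the higher 16-week array in all 5. Macrophage genes moved with it, with a list mean of 5.03 and 5.44 at 16 weeks and 5.0 and 5.19 at 6 weeks; their part in the interferon values was not tested.

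Other inflammatory genes had no shared order. Lcn2, lipocalin 2, read 6.81 and 5.96 at 16 weeks and 4.88 and 4.62 at 6 weeks, and Ccl2, which attracts monocytes, 3.82 and 3.69 at 16 weeks and 2.43 and 3.38 at 6 weeks. Cxcl12, a stromal chemokine, was lower, at 3.35 and 3.22 at 16 weeks and 4.50 and 4.67 at 6 weeks; lean 6J islets had 3.84 and 4.05 at 16 weeks and 4.98 and 4.97 at 6 weeks, the same order. Of 19 chemokine and cytokine genes 12 lay above 0. Of the 20 immediate-early genes 15 did; Egr2, a zinc finger factor, read 4.11 and 4.26 at 16 weeks and 3.29 and 3.61 at 6 weeks, and Egr4 3.63 and 3.17 at 16 weeks and 2.79 and 2.93 at 6 weeks.

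**Figure D5:**
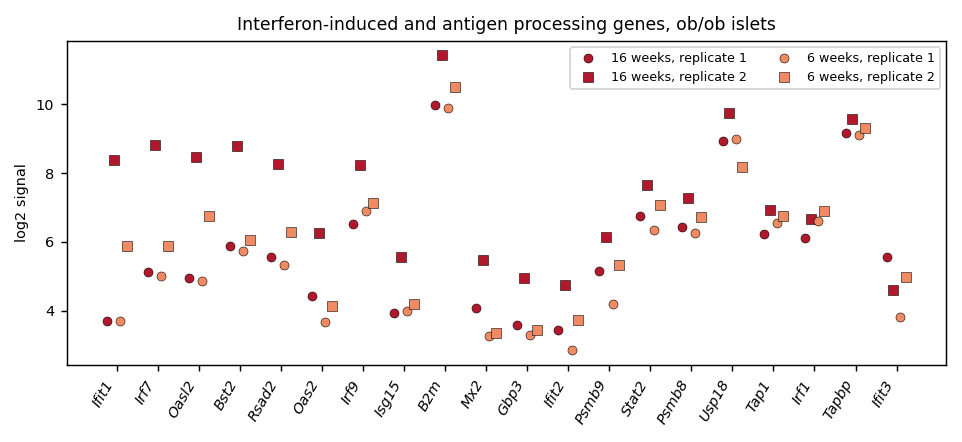
Log2 signal of the 20 interferon-induced and antigen processing genes on each ob/ob array, ordered by the difference between the 16-week arrays; points are single arrays. The dark squares (16-week replicate 2) stand above the dark circles (16-week replicate 1) in 19 of 20 genes, at 8.39 and 3.70 for Ifit1.

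Genes of other cell types also varied between the arrays of an age. Of 22 acinar genes 20 lay above 0, with a median of 0.44, and 21 were higher on 6-week replicate 1 than on replicate 2; Sycn, a zymogen granule protein, read 11.88 and 10.77 at 16 weeks and 11.03 and 9.77 at 6 weeks. Bhlha15, a factor of secretory cells, read 7.98 and 7.87 at 16 weeks and 6.94 and 7.29 at 6 weeks. Reg2, a member of the regenerating protein family, read 8.95 and 7.32 at 16 weeks and 7.37 and 5.60 at 6 weeks, the order of the acinar genes. Endothelial genes lay above 0 in 11 of 14 cases, with Plvap, a protein of fenestrated capillaries, at 9.85 and 9.98 at 16 weeks and 9.81 and 9.46 at 6 weeks. Of 21 matrix and stellate genes 10 lay above 0; Dcn, decorin, read 4.99 and 5.83 at 16 weeks and 7.06 and 6.50 at 6 weeks, and Mgp, matrix Gla protein, 8.0 and 8.18 at 16 weeks and 7.69 and 7.50 at 6 weeks. Krt18, a keratin of epithelial cells, read 9.37 and 9.17 at 16 weeks and 8.64 and 8.75 at 6 weeks. Of 9 duct genes 7 lay above 0, as did 9 of 13 enterocyte and 6 of 8 goblet cell genes, whose array means stayed near those of 3 of the 4 lean 6J arrays. The lists of secretory granule genes (13 of 23 above 0), Bcl2 family genes (8 of 16), genes normally held silent in beta cells (9 of 18) and serotonin and prolactin genes (6 of 16) were split in direction, and no list of the 40 held a called gene.

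The age change in ob/ob islets was then set against that in lean 6J islets, which shares no array with it. limma called 0 genes (0%) for the difference of the changes, with 430 (2.77%) at an unadjusted p below 0.05; the lean age change itself gave 0 calls (0%) and 445 (2.87%). Eef1a2 had a difference of -1.73 ± 0.39 and Bcat1 of 1.28 ± 0.30 (SE, adjusted p = 1.0 for both). The lean group limits this comparison, because its 6-week replicate 2 held enterocyte genes and its 6-week arrays had opposite sexes by Uty and Xist. Leaving out lean 6-week replicate 1, so that this array stood alone, gave 158 calls, and leaving out replicate 2 gave 0.

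Against db/db islets, which differ from ob/ob in both strain and mutation, the difference of age changes gave 0 calls (0%) and 760 (4.90%) at an unadjusted p below 0.05. Sex enters this comparison too. In db/db islets Xist read 9.31 and 8.57 at 16 weeks and 8.74 and 8.46 at 6 weeks, a high level at both ages. The change from a male to a female profile in ob/ob islets is therefore part of every difference given here. Star had a difference of -1.33 (adjusted p = 0.390): in db/db islets it read 5.05 and 4.83 at 16 weeks and 4.71 and 4.88 at 6 weeks. Vstm2a differed by -2.23 (adjusted p = 0.894), with 7.66 and 7.62 at 16 weeks and 4.43 and 4.32 at 6 weeks in db/db islets. The db/db age change alone called 10 genes (0.0644%), 4 higher (0.0258%) and 6 lower (0.0386%), with 1182 (7.61%) at an unadjusted p below 0.05, and Bcat1 was among the higher. Calls in db/db islets and none in ob/ob islets do not show that the changes differ, and the test of the difference passed for no gene.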

How the data were processed

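RNA was hybridised to Affymetrix Mouse Gene ST arrays. The deposited values are log2 signals per transcript cluster; MAS5, RMA and Partek appear in the submitters' processing notes, with neither a version nor a role, so how the background was corrected is not given in the sources used here. No read depth exists for arrays, so their number limits the precision. The table of 16 arrays in 8 groups of 2 was used. Of its 41034 clusters, 23521 had 1 gene in the platform annotation, 1814 several and 15699 no row, and the first kind was kept. Symbols were updated through Entrez IDs for 23328 of them. The cluster with the highest mean stood for a gene (22180 genes), and genes under the 30th percentile, a log2 mean of 2.99, were left out (15526 tested).

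limma 3.58.1 (R 4.3.3) estimated group means on the 16 arrays together, with 8 degrees of freedom left for the variance, which eBayes moderated. P-values were two-sided, adjusted by Benjamini-Hochberg over all genes tested and called below 0.05; every adjusted p in the text is of this kind. The fit was tested on simulated data. Lists (40) were described by counts and medians, without a test. Of 721 distinct list genes, 655 had a cluster of their own. A list's mean on an array was taken over all such members, also those under the filter. Means of the neuron and snoRNA groups were over tested genes. The members, the lists and the rule for named genes were chosen with earlier results of these data known. The rule took up to 5 genes each way with the smallest p where fewer were called, from each list the 4 members of lowest p, a fixed set of islet genes, the 5 largest each way by the smaller single-array difference and the 5 largest each way between the 6-week arrays. Symbols of predicted genes or clones (such as those with Gm, LOC, Rik or BC) were passed over in the rankings over all genes. Other named genes illustrate a list or an array and were chosen after their values were seen, as were Mir7-2, the microRNA and snoRNA groups and the neuron list. Sequences came from RefSeq tables matched by symbol. Alternatives changed the filter, the normalization, the variance model, array weights, the cluster rule, a minimum change, the arrays in the fit, an Xist covariate, acinar and enterocyte covariates, and left out each array. Figures used matplotlib 3.10.9.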

Additional observations from a re-analysis of the deposited data

How the results depend on the processing

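The count of 0 genes for ob/ob islets of 16 against 6 weeks was 4 with the compared groups alone, and 0 to 8 with each array left out (1 without 16-week replicate 1, 8 without 6-week replicate 1). Against 6-week replicate 1 alone it was 2 with array weights and otherwise 0. Against 6-week replicate 2 alone, the 8 calls became 20 with the 50th percentile filter, 3 with quantile normalization, 5 with median centring, 15 with trend and robust eBayes, 180 with array weights, 2 with the compared groups alone, 0 with the Xist covariate, 93 without the 2 lean arrays rich in acinar or enterocyte genes, 40 with 6J arrays alone, and 0 to 3 with a 16-week array left out. The difference from the lean 6J age change ran from 0 to 158 with an array left out. The difference from db/db gave 1 without variance moderation, 6 with the compared groups alone, 2 without the 2 lean arrays and 0 to 5 with an array left out. The lean 6J age change gave 1 without moderation and 0 to 335 with an array left out (335 without 6-week replicate 1). The 10 calls of the db/db age change became 5 with the 50th percentile filter, 2 without moderation, 0 with the compared groups alone, 0 with tissue covariates, 79 without the 2 lean arrays, and 0 to 12 with an array left out. The causes were not tested. The settings were applied to the single-array comparisons after the values were seen. No paired analysis was possible because the labels carry no replicate numbers shared between groups.

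Of 111 named genes, 81 kept their direction under every setting run. With the Xist covariate the log2 change was 0.19 for Eif2s3y, 0.41 for Kdm5d, 0.0867 for Slc2a2, 0.13 for Mafa, 0.15 for Nkx6-1, 0.22 for Pdx1 and -0.081 for Plk1. It was -0.0498 for Ucn3 after quantile normalization and 0.0306 for Mafa with tissue covariates. With each array left out it ran from -0.22 to 4.87 for Aldh1a3, -0.18 to 2.25 for Vstm2a, -0.53 to 2.76 for C1qtnf1, -0.00715 to 3.55 for Serpina7, -0.00715 to 1.57 for Cd44, -0.95 to 2.45 for Cck and -0.59 to 1.69 for Gucy2c. It ran from -1.20 to 0.70 for Gast, -0.96 to 0.58 for Csn3, -0.63 to 0.28 for Txnip, -0.0534 to 0.18 for Ins2, -0.28 to 0.30 for Ucn3, -0.84 to 0.47 for Slc2a2, -0.62 to 0.51 for Mafa and -0.29 to 0.12 for Nkx6-1. It ran from -3.92 to 0.51 for Ighm, -3.58 to 0.21 for Cxcl13, -2.52 to 0.19 for Npy, -1.76 to 0.92 for Nnat, -2.94 to 0.14 for Cyp4f39 and -2.30 to 0.67 for Slc5a7. It ran from -0.69 to 0.33 for Mki67, -0.30 to 1.12 for Plk1, -0.0326 to 2.88 for Bst2, -0.43 to 3.97 for Cxcl10, -1.09 to 3.6 for Ifit1 and -0.34 to 3.37 for Irf7. Genes near the filter's log2 level of 2.99 have the dimmest mean signals among those tested, and signal over background was not measured.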

Other observations

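Small nucleolar RNA genes, which guide chemical modification of ribosomal RNA, formed a group that was noticed only after values were seen and was given no test. Of 46 C/D box genes (Snord symbols), 40 lay above 0 in ob/ob islets of 16 against 6 weeks and 30 were higher without overlap, with a median log2 change of 0.43. Their mean was 8.02 and 8.05 at 16 weeks and 7.75 and 7.57 at 6 weeks. Of 25 H/ACA box genes (Snora symbols), 21 lay above 0, with a median of 0.25 and a mean of 6.63 and 6.76 at 16 weeks and 6.25 and 6.09 at 6 weeks. The share without overlap over all genes tested was 16.9% above and 19.4% below. In lean 6J islets the medians were 0.13 for C/D box and 0.24 for H/ACA box genes, and in db/db islets -0.16 and -0.05.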
